A study of Mus musculus with 2 samples.

Results

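Distal accessible sites in gene deserts were taken from DNase-seq of mouse urinary bladder, a method in which the nuclease DNase I cuts DNA where chromatin is open. A site was a merged interval of the shorter, stricter peak list of each library, and it was kept when it lay on an autosome and held a peak from both libraries. Desert sites were those with a midpoint more than 200 kb from every transcription start of a GENCODE M21 protein-coding transcript. They numbered 851 of 30840 shared autosomal sites, or 2.76%. The sites they were set against lay 5 to 50 kb from the nearest coding start and numbered 8660. The study has 1 group: whole urinary bladder of male B6CASTF1/J mice, an F1 hybrid strain, aged 36 days, with no treatment named. It holds 2 libraries, replicate 1 and replicate 2, whose labels number the males separately but give the same donor entry. Reads of these hybrid animals were placed on the mm10 assembly, which represents a single parental strain. Bladder tissue mixes urothelium, detrusor smooth muscle, stroma, vessels, nerve and immune cells, and the labels name no layer of it. A low peak in few cells therefore cannot be told apart from a low peak in many.

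A gene desert is a long stretch of a chromosome without protein-coding genes. Some deserts flank genes for developmental transcription factors and are known to hold enhancers that act over long distances, while others are poor in known regulatory sequence. Accessible sites far from starts are typically enhancers, silencers or sites of CTCF, the protein that anchors chromatin loops. Where a bound protein shields DNA inside such a site, the nuclease leaves a short protected stretch called a footprint.

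The sequences below show single desert sites, picked by height and by the consensus they hold. They are, in turn, the highest desert site, then the highest site not already shown that holds the consensus of CTCF, of AP-1 (the FOS and JUN factors), of TEAD (the partners of YAP) and of GATA factors. The last is the highest AP-1 site nearest to Tbx3 and was chosen after its values were seen. All are the plus strand of GRCm38.p6, which shares coordinates with mm10, and capitals mark the named consensus on either strand. In the highest site, the capitals mark a CTCF consensus too.
Highest site, chr8:20122141-20122320: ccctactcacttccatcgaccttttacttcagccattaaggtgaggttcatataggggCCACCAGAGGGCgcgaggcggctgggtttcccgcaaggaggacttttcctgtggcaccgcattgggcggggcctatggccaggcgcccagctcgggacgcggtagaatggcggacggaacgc
CTCF site, chr3:50906061-50906260: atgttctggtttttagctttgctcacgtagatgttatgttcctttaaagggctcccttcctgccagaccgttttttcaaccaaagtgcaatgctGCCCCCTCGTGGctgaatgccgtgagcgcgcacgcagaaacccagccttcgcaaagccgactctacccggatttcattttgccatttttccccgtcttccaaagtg
AP-1 site, chr10:126511601-126511820: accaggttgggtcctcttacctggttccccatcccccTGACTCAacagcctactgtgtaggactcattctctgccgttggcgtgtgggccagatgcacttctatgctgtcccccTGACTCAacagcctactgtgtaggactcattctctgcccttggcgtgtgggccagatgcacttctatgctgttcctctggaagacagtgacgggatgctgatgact
TEAD site, chr5:64430543-64430831: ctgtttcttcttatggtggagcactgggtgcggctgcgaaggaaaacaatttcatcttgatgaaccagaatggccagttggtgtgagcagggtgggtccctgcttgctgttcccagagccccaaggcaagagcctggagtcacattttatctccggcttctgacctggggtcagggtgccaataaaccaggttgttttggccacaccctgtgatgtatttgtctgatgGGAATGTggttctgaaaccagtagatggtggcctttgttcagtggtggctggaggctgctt
GATA site, chr6:99991181-99991380: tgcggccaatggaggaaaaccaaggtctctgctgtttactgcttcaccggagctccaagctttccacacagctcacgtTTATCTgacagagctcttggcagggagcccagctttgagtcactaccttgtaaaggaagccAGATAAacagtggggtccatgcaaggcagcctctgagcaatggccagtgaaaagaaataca
AP-1 site nearest Tbx3, chr5:119167801-119168060: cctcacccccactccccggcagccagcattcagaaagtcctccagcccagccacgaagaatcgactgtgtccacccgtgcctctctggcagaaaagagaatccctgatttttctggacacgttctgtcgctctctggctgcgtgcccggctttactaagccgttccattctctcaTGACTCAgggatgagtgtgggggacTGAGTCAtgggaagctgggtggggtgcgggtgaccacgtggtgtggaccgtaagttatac

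All 6 printed sites are intergenic. Peak height is the authors' deposited signal value on a scale that the sources used here do not give, set by a constant for each library. The highest site had a height of 11.0 in replicate 1 and 9.24 in replicate 2, with a footprint over its CTCF consensus in each library. In this site, 70.7% of the 31-base words occur more than once in the reference. It lies 219 kb from the start of Gm31371, its nearest coding gene, and at a start of the noncoding gene Gm21769. The CTCF site lies 318 kb from Noct, the gene of the circadian protein nocturnin. Its heights were 3.67 in replicate 1 and 3.76 in replicate 2, it held 5 and 7 footprints, and a footprint covered the consensus in both libraries. The AP-1 site lies 389.6 kb from Atp23, which codes for a mitochondrial protease. It holds the 7 letters TGACTCA at both places in capitals, and its heights were 7.15 in replicate 1 and 4.79 in replicate 2. The letters and the sequence after them stand in the site as a near-identical tandem pair. Of its 31-base words, 17.9% occur more than once in the reference. A footprint covered the downstream copy in both libraries. The TEAD site lies 200.3 kb from Tbc1d1, a Rab GTPase-activating protein, and had heights of 1.49 in replicate 1 and 1.54 in replicate 2. These are below the medians of all shared autosomal sites, 1.68 and 1.56. The GATA site lies 265 kb from Prok2, a secreted prokineticin, and had heights of 3.50 in replicate 1 and 2.78 in replicate 2. No footprint lay over the TEAD or GATA letters of these sites in either library. The site nearest Tbx3 had heights of 2.30 in replicate 1 and 2.66 in replicate 2. It holds a pair of AP-1 consensus sequences, and a footprint covered the upstream copy in replicate 1 only.

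For the libraries as a whole, the shorter peak lists held 38674 peaks in replicate 1 and 47661 in replicate 2, and the footprint lists held 140919 and 167442 footprints. A peak at a coding start was present for 15 of 16 urothelium marker genes in replicate 1 and for all 16 in replicate 2. Such peaks were found at 6 of 14 smooth muscle genes in each library and at 1 of 8 neuron genes. None was found at 6 hepatocyte genes or at 5 prostate and seminal vesicle genes. No header gives read depth, so it is unknown. With 2 libraries, an exact test of a paired difference cannot give a two-sided p below 0.5, so no difference between classes could pass 0.05. The values below are given per library, with the SD over 2 libraries.

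Desert sites were sparse. Sequence more than 200 kb from any coding start makes up 612 Mb, or 25.5% of the autosomal sequence without gaps, and held 1.39 shared sites per Mb. Sequence 5 to 50 kb from a start makes up 886 Mb and held 9.77 sites per Mb. The band between them, 50 to 200 kb from a start, held 5.37 sites per Mb, and the band within 5 kb held 70.1. Among desert sites, the median distance to the nearest coding start was 309.6 kb. Beyond 500 kb there were 127 of them, beyond 1000 kb there were 16, and beyond 1500 kb there were 3. The nearest other shared site was a median of 97.1 kb away for desert sites and 13.3 kb for sites 5 to 50 kb from a start. Another shared site lay within 5 kb of 105 desert sites, or 12.3%, against 23.5% of the sites 5 to 50 kb from a start.

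Desert sites were lower than sites nearer to genes in both libraries. Their median height was 0.873 in replicate 1 and 0.911 in replicate 2, against 1.39 and 1.31 for sites 5 to 50 kb from a start. As means over the libraries, these are 0.892 ± 0.0267 and 1.35 ± 0.0579 (SD, n = 2). The ratio of the medians was 0.626 in replicate 1 and 0.694 in replicate 2, a log2 difference of -0.60 ± 0.10 (SD, n = 2). The middle 50% of desert sites ran 0.680 to 1.30 in replicate 1 and 0.670 to 1.22 in replicate 2, so the classes overlapped broadly. Among the stronger 50% of shared sites, a choice that selects on height itself, the 102 desert sites left showed a log2 difference of 0.015. The median desert site ranked at the 13.2 percentile of all shared sites in replicate 1 and at the 19.2 percentile in replicate 2. For sites 5 to 50 kb from a start these percentiles were 39.2 and 40.0. The height did not step down at 200 kb: the 100 desert sites closest to the limit had medians of 0.918 and 1.04, and the 100 sites just short of it had 0.964 and 0.973. The sites 50 to 200 kb from a start fell in between, with medians of 1.12 in replicate 1 and 1.08 in replicate 2. At the top of the range, 6 desert sites in replicate 1 and 7 in replicate 2 were among the highest 10% of all shared sites, or 0.705% and 0.823% of the class. The shares for sites 5 to 50 kb from a start were 2.12% and 1.69%.

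**Figure D1:**
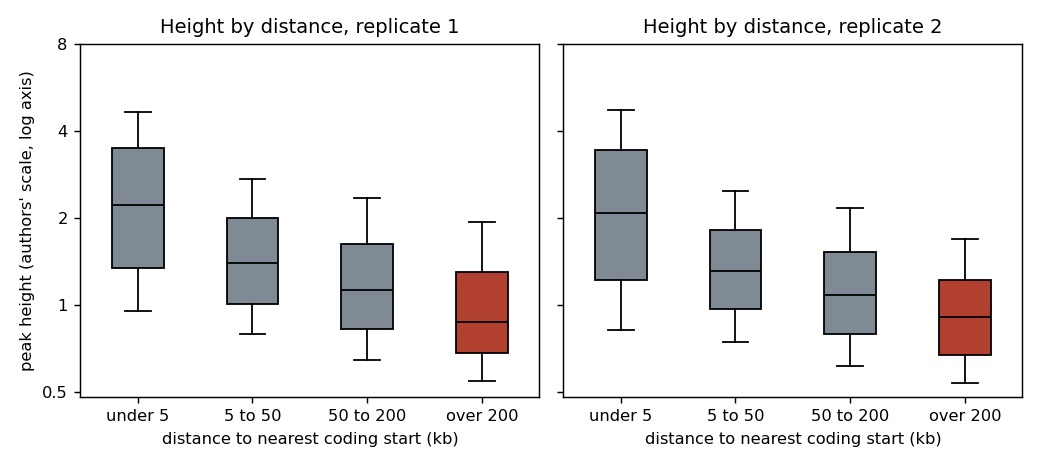
Peak height of shared autosomal sites (y axis, the authors' scale, log axis) by distance of the site to the nearest coding start (x axis, kb), with a panel for each replicate. Boxes span the middle 50% of sites, lines mark medians and whiskers the 10th to the 90th percentile. Medians stand in the same order in both panels, with desert sites at 0.873 and 0.911.

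Desert sites were hardly narrower than sites 5 to 50 kb from a start. Mean peak widths were 169 bases in replicate 1 and 201 in replicate 2, against 182 and 202 bases for sites 5 to 50 kb from a start. The log2 difference of -0.06 ± 0.07 (SD, n = 2) was no larger than the spread between libraries. Peaks over 300 bases wide made up 4.58% and 7.87% of desert sites and 5.67% and 8.22% of sites 5 to 50 kb from a start. Within the 1000 bases around a site, the authors' per-base false discovery rate was at most 0.05 over a median of 296 bases in replicate 1 and 341 in replicate 2 at desert sites. At sites 5 to 50 kb from a start the medians were 295 and 333 bases.

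Fewer of the merged sites in deserts were found in both libraries. Of 1877 merged desert sites, 45.3% were shared, against 55.5% of 15612 merged sites 5 to 50 kb from a start. Of the desert sites of replicate 1, 84.5% were found in replicate 2, and of those of replicate 2, 49.4% were found in replicate 1. The shares for sites 5 to 50 kb from a start were 86.4% and 60.8%. Desert sites were mostly low, so sharing was also compared among sites of like height. In the lowest height class of replicate 1, set so that each of 4 classes holds about as many shared autosomal sites, 78.6% of desert sites were found in replicate 2, against 72.3% of sites 5 to 50 kb from a start. In the lowest class of replicate 2, 38.4% of desert sites and 36.6% of the nearer sites were found in replicate 1. Across shared desert sites, heights in the libraries had a Spearman correlation of 0.796 over 851 sites, and across sites 5 to 50 kb from a start the value was 0.854 over 8660. Both are descriptions over sites that share their libraries.

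**Figure D2:**
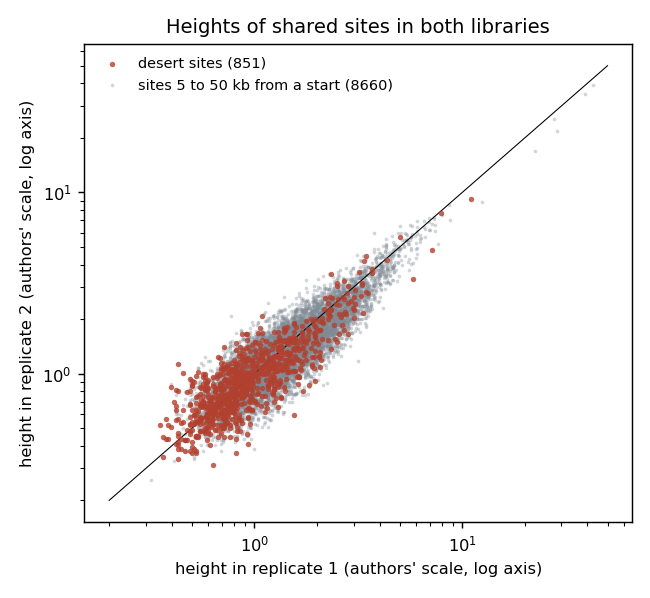
Height in replicate 1 (x axis) against height in replicate 2 (y axis), both on the authors' scale with log axes, for 851 desert sites in red and 8660 sites 5 to 50 kb from a start in grey. The line marks equal heights. Desert sites crowd the lower end, with a Spearman correlation of 0.796, and a few reach heights above 3 in both libraries.

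Most desert sites held a footprint. In replicate 1, 772 of 851 did, or 90.7% (exact Clopper-Pearson 95% interval 88.6 to 92.6), and in replicate 2, 798 did, or 93.8% (91.9 to 95.3). Over all shared autosomal sites, 93.1% held one in replicate 1 and 93.3% in replicate 2, so the desert share was below that background in replicate 1 and near it in replicate 2. For sites 5 to 50 kb from a start, the shares were 96.5% and 97.3%. The difference between desert sites and these nearer sites was -4.64 ± 1.56 percentage points (SD, n = 2). Over the sites of a single library, shared or not, it was -9.70 points in replicate 1 and -8.43 in replicate 2. All such intervals cover counting error only. Footprints in both libraries were found at 737 desert sites, or 86.6%, and at 94.7% of sites 5 to 50 kb from a start. At 18 desert sites there was a footprint in neither library. Desert sites held a mean of 2.12 footprints in replicate 1 and 2.36 in replicate 2, against 2.51 and 2.61 for the nearer sites.

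The footprint shares moved with height. Among desert sites in the lowest height class, 86.5% held a footprint in replicate 1 and 89.9% in replicate 2, against 90.8% and 93.1% of sites 5 to 50 kb from a start in the same class. In the second class the shares were 98.8% and 99.6% for desert sites and 98.2% and 98.5% for the nearer sites, which do not differ beyond their intervals. Averaged over the height classes with equal weight, the difference was -1.08 ± 1.01 percentage points (SD, n = 2), an alternative added after the data were seen. The lowest class held 564 of the 851 desert sites in replicate 1 and 513 in replicate 2. The equal-weight average thus counts that class for less than its share of desert sites. The 4.64-point gap over all sites was smaller when sites of like height were set side by side.

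**Figure D3:**
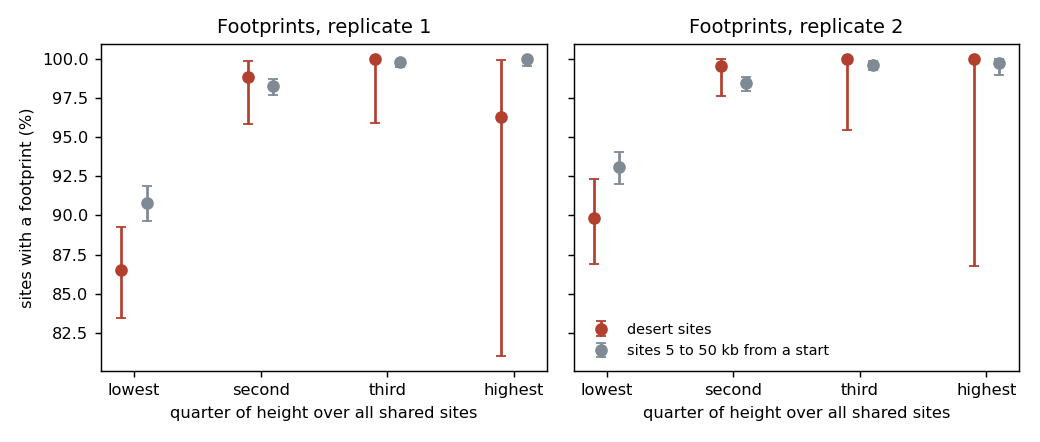
Share of sites with at least 1 footprint (y axis, %, cut at the lower end) in each of 4 height classes (x axis) per replicate, with exact 95% intervals, for desert sites in red and sites 5 to 50 kb from a start in grey. At the lowest heights the intervals stand apart in replicate 1, at 86.5% and 90.8%, and touch in replicate 2, at 89.9% and 93.1%, and they overlap at greater heights.

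The sequence of desert sites was poorer in CTCF consensus than that of sites nearer to genes. The core CTCF consensus, searched on both strands and shown in capitals above, was found in 173 desert sites, or 20.3% (17.7 to 23.2), against 29.95% (29.0 to 30.9) of sites 5 to 50 kb from a start. The share over all shared autosomal sites was 16.3%, so desert sites stood above the background that includes promoters. Windows of the same width 1 kb to either side held it in 0.823% of cases around desert sites and in 2.67% around the nearer sites. Within each of the 4 height classes of either replicate, the desert share was below that of the nearer sites, at 17.4% and 22.6% in the lowest class of replicate 1 and at 33.0% and 39.5% in the third. A footprint covered the consensus in both libraries at 141 of the 173 desert sites, or 81.5% (74.9 to 87.0), and at 91.9% of such sites 5 to 50 kb from a start. Desert sites with the consensus had median heights of 0.975 and 0.964, and those without it 0.850 and 0.902.

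The AP-1 consensus TGANTCA was found in 130 desert sites, or 15.3% (12.9 to 17.9), against 13.3% (12.6 to 14.0) of sites 5 to 50 kb from a start. Over all shared autosomal sites the share was 9.6%. The intervals of desert sites and nearer sites overlap, and the desert share was lower by 0.147 percentage points when only the sites of replicate 1 were used. It was lower by 0.782 points against sites 50 to 200 kb from a start. In flanking windows the consensus was found in 6.46% of cases around desert sites and in 5.91% around nearer sites. A footprint lay over it in both libraries at 12 of the 130 desert sites, or 9.23%, and at 12.7% of such sites 5 to 50 kb from a start, far below the values for CTCF in both classes. The GATA consensus AGATAA was found in 81 desert sites, or 9.52% (7.63 to 11.7), against 7.44% (6.89 to 8.01) of the nearer sites and 5.68% of all shared autosomal sites. It was more frequent in windows flanking desert sites, at 13.1%. The TEAD consensus GGAATGT was found in 21 desert sites, or 2.47%, in 3.15% of the nearer sites and in 2.89% of all shared autosomal sites. Windows flanking desert sites held it in 2.82% of cases. The SP consensus GGGCGG, common at promoters, was found in 12.2% of desert sites, 16.4% of the nearer sites and 43.6% of all shared autosomal sites. The 7 letters TTTATGG of posterior HOX factors were found in 3.995% of desert sites and 2.14% of the nearer sites, close to their flanking windows at 3.88% and 2.76%. In all, 21 consensus sequences were searched. The most frequent of them in desert sites was the E-box CAGCTG, in 188 sites, or 22.1% (19.3 to 25.0). It was found in 19.6% of the nearer sites, 19.1% of all shared autosomal sites and 10.2% of windows flanking desert sites. A match is a description of the letters and not a bound factor. Matches of different consensus sequences can overlap, and base composition differed, with a median GC content of 51.0% in desert sites and 53.4% in the nearer sites.

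By annotation, 562 desert sites were intergenic, or 66.04%, against 45.5% of sites 5 to 50 kb from a start. Introns of coding genes held 156 desert sites, or 18.3%, and 40.1% of the nearer sites. These introns belong to genes so long that the site lies over 200 kb from any of their protein-coding transcript starts. Other transcripts of some of these genes, such as Sox5 and Dync1i1, start within 500 bases of such a site. Introns of noncoding genes held 102 desert sites, or 11.99%, and exons held 31, or 3.64%. At 66 desert sites a transcript of any type other than protein-coding, here called a noncoding start, began within 500 bases. That is 7.76% of the class and 8.04% for the nearer sites. The type includes antigen receptor gene segments, such as Ighv11-1 and Trav17, and other transcripts of coding genes, such as Nav3 and Celf4. Those 66 had median heights of 1.16 in replicate 1 and 1.05 in replicate 2, and the other 785 desert sites had 0.850 and 0.902. Only 45 desert sites lay more than 200 kb from the start of a transcript of any kind.

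The nearest coding genes of desert sites were often genes of developmental transcription factors. Of the 851 sites, 92 had such a gene as the nearest, or 10.8% (8.80 to 13.1), against 3.36% (2.99 to 3.76) of sites 5 to 50 kb from a start. Over all shared autosomal sites the share was 3.42%. Several sites share a gene, so the count was also made over genes. There were 529 nearest genes of desert sites, of which 52 were on this list, or 9.83%, and 5673 nearest genes of the nearer sites, of which 2.96% were. Deserts themselves lie unevenly around genes. Sequence whose nearest coding gene is on the list made up 5.99% of desert sequence and held 2.51 shared sites per Mb, against 1.32 per Mb in all other desert sequence and 1.49 per Mb in desert sequence nearest to genes in none of the 9 lists. Without Sox9 and Tbx3, the genes of the list with the most sites, the density was 2.23 per Mb. In the libraries taken alone it was 2.87 per Mb in replicate 1 and 5.10 in replicate 2, while desert sequence nearest to genes in none of the lists held 1.78 and 2.98.

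Genes of guidance receptors and cell adhesion, such as cadherins, protocadherins and teneurins, had a large share of desert sites and a larger share of desert sequence. They were nearest to 66 desert sites, or 7.76%, against 1.07% of sites 5 to 50 kb from a start. Their share of desert sequence was 17.4%, so their deserts held 0.621 shared sites per Mb, and all other desert sequence held 1.55. The libraries taken alone gave 0.762 per Mb in replicate 1 and 1.19 in replicate 2. Counted by gene, the order was different: of 97 adhesion genes with desert sequence of their own, 39 had a desert site, or 40.2%, against 44.8% of 116 transcription factor genes and 27.9% of 1517 genes in none of the lists. The adhesion genes had a median of 0.858 Mb of desert sequence each, the transcription factors 0.220 Mb and the genes in none of the lists 0.169 Mb. Median heights were also low, at 0.743 and 0.737, against 0.958 and 0.946 for sites nearest to the transcription factors. Secreted signals and guidance cues were nearest to 13 desert sites, or 1.53%, and to 1.09% of the nearer sites, with 1.01 shared sites per Mb of their desert sequence. Marker genes of bladder cell types were nearest to few sites, and they adjoin little desert sequence. Urothelium genes were nearest to 6 desert sites, or 0.705%, against 0.335% of the nearer sites, at 4.19 per Mb of their 1.43 Mb of desert sequence. Fibroblast and matrix genes were nearest to 4 desert sites, or 0.470%, against 0.127% of the nearer sites, at 4.50 per Mb. Immune genes were nearest to 3 desert sites, or 0.353%, against 0.0924% of the nearer sites, at 7.32 per Mb, and all 3 belong to Ptprc. These densities are above the 2.51 of the transcription factors but rest on 6 sites or fewer. Gata3, with 4 of the urothelium sites, and Klf5, with 1, are on the transcription factor list too. There were 2 sites for endothelium, or 0.235%, against 0.173% of the nearer sites, at 3.36 per Mb. Glia and nerve had 1, or 0.118%, against 0.150% of the nearer sites, at 1.84 per Mb. Smooth muscle genes had 0, against 0.231% of the nearer sites, and they adjoin only 0.930 Mb of desert sequence. A count of 0 of 851 has an exact upper limit of 0.433%.

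**Figure D4:**
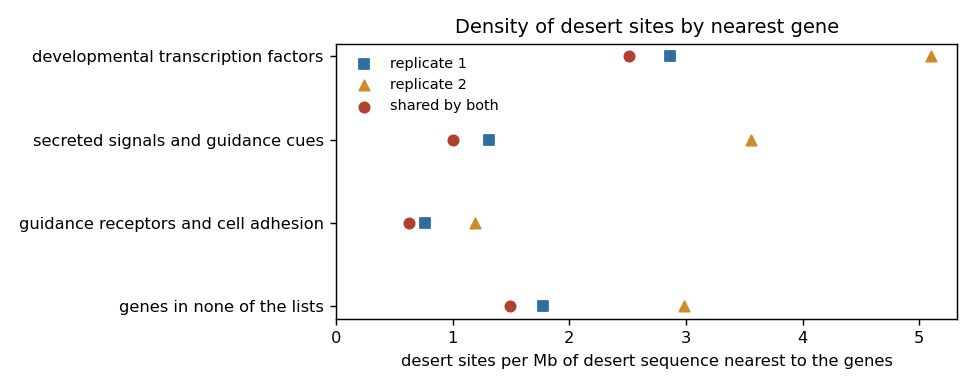
Desert sites per Mb of desert sequence (x axis) whose nearest coding gene belongs to each list (y axis), counted in replicate 1 alone, in replicate 2 alone and as sites shared by both. Developmental transcription factors lie at 2.51 shared sites per Mb and guidance receptors and cell adhesion at 0.621, with the transcription factors above the adhesion genes in each library.

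Among transcription factors, Sox9 was nearest to 8 desert sites, 206 to 638 kb away. It codes for a factor of cartilage and of several epithelia, and its best site heights were 1.78 in replicate 1 and 1.79 in replicate 2. Tbx3, a T-box factor, was nearest to 5 sites 243 to 540.3 kb away, with heights up to 2.74 and 2.66. Gata3, a factor expressed in urothelium, was nearest to 4 sites. These lay 258, 1149, 1202 and 1204 kb from its start, with heights of 1.54, 2.06, 1.26 and 1.49 in replicate 1 and 1.89, 1.75, 1.04 and 1.21 in replicate 2. The sites at 258 and 1149 kb hold an AP-1 consensus, and the site at 1204 kb a CTCF consensus. The sites at 1149, 1202 and 1204 kb are nearly as close to Celf2 on their other side, at 1333, 1281 and 1278 kb. Sox9, Tbx3 and Gata3 were each accessible at a start in both replicates. Klf5, a zinc finger factor of urothelium, had 1 desert site 326 kb away with heights of 1.49 and 1.29 and an AP-1 consensus. Shh, the hedgehog ligand that urothelium secretes, had 1 site 222 kb away with heights of 0.680 and 0.652, in an intron of a noncoding gene, and Shh itself was not accessible at a start in both replicates.

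Of the signal genes, Inhba, which codes for an activin subunit, had 3 desert sites with heights of 1.98, 1.41 and 1.29 in replicate 1 and 1.69, 1.75 and 1.71 in replicate 2. Nrg1, a ligand of ERBB receptors, had 2 sites, up to 0.816 and 0.911 high. Hgf, the ligand of the MET receptor, had 1 site 244 kb away, with heights of 1.71 and 1.40. Ptpru, a receptor tyrosine phosphatase, had 4 sites, up to 2.26 and 1.99 high. Pcdh18, a protocadherin, also had 4 sites, but none above 0.794 in replicate 1 or 1.02 in replicate 2. Ptprc, the leukocyte phosphatase CD45, was on both the adhesion and the immune list. It had 3 sites within 3 kb of each other, the highest of them an exon and start of the noncoding gene Gm4258, with heights of 1.92 and 1.95. Osr1, a factor of stromal cells, had 2 sites with heights of 1.33 and 0.907 in replicate 1 and 0.893 and 1.39 in replicate 2, both with an AP-1 consensus. The single sites of Col3a1 (a fibrillar collagen) and Dcn (the proteoglycan decorin) had heights of 0.816 and 0.828 in replicate 1 and 0.991 and 0.679 in replicate 2. Cdh5, the cadherin of endothelium, had 2 sites no higher than 0.828 and 0.839, and Stmn2, a neuronal stathmin, had 1 site at 0.975 and 0.768.

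Of the 529 nearest genes of desert sites, 351 were accessible at a start in both replicates, or 66.4%. The share was 66.5% for the 5673 nearest genes of sites 5 to 50 kb from a start, and 56.3% for all autosomal coding genes. Genes that are nearest to some desert sequence but to no desert site were accessible at a start in 55.1% of 1273 cases. A single desert site was assigned to 335 genes. Med13l, a subunit of the Mediator complex, had 13, the most of any gene.

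Desert sites were spread over many deserts. There were 1109 gaps between coding starts with sequence more than 200 kb from both ends, and 433 of them, with 316 Mb of such sequence, held a desert site. Exactly 1 site lay in 220 of them, and 22 deserts with 5 or more sites held 144 of the 851 sites in 15.3 Mb. The desert between Med13l and Tbx3 on chromosome 5 held the most, with 18 sites in 0.710 Mb, or 25.4 per Mb. Their heights ran 0.737 to 2.82 in replicate 1, with a median of 1.21, and 0.634 to 2.66 in replicate 2, with a median of 1.17. All 18 were intergenic and held a footprint in both libraries, 6 held an AP-1 consensus and 1 a CTCF consensus. Both medians exceed those of desert sites as a whole. Some of these sites stood in runs and others alone. A run of 5 sites 313 to 321 kb from Med13l had heights of 0.737 to 2.56 in replicate 1 and 0.634 to 2.13 in replicate 2. A run of 3 at 525 to 526 kb had heights of 1.22 to 2.60 in replicate 1 and 1.18 to 2.06 in replicate 2. The site highest in replicate 1 stood alone 221 kb from Med13l, with heights of 2.82 and 1.66. Among the 4 sites with heights of at least 2 in both libraries, the one 319 kb from Med13l holds the CTCF consensus. The sites 540.3 and 503 kb from Tbx3 each hold an AP-1 consensus, and the site 526 kb from Med13l holds neither.

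On chromosome 11, the desert between Sox9 and Slc39a11, a zinc transporter, held 8 sites, or 20.9 per Mb. Their heights were 1.10 to 2.69 in replicate 1 and 1.04 to 3.24 in replicate 2, so the lowest of them stood above the median desert site in both libraries. The highest lies in an exon at a start of the noncoding gene 2610035D17Rik, 420 kb from Sox9. On the other side of Sox9, the desert that runs to Kcnj2, a potassium channel gene, held 6 sites in 1.32 Mb. There the heights were only 0.465 to 0.873 in replicate 1 and 0.429 to 0.848 in replicate 2, below every site of the Slc39a11 side. Between Npvf, a neuropeptide gene, and Nfe2l3, a bZIP factor gene, there were 8 sites, of which 3 within 11 kb of each other had heights of 3.05, 2.34 and 2.51 in replicate 1 and 2.42, 3.56 and 3.04 in replicate 2.

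The other deserts with the most sites differed in height. Arglu1, a splicing and transcription cofactor gene, and Fam155a, which codes for a channel subunit, enclosed 8 sites with median heights of 0.816 and 0.768. The desert between Thap1 and Zfp703, both zinc finger genes, held 7 sites with medians of 0.782 and 0.902. That between the kinase gene Camk1g and Plxna2, a semaphorin receptor gene, held 7 with medians of 1.35 and 1.07. Between Myc and Gsdmc, a gasdermin gene, 7 sites in 1.42 Mb had medians of 0.816 and 0.723, and footprints in both libraries at only 3. The AW554918 to Celf4 desert on chromosome 18 held 7 sites with medians of 0.726 and 0.670. None of them was intergenic, and all 7 lie within the Celf4 gene itself. Celf4 codes for an RNA-binding protein. Matn1, a matrilin gene, and Ptpru enclosed 6 sites with medians of 1.24 and 1.22, and Dhx35, a helicase gene, and Gm826 enclosed 6 with 0.828 and 0.893. Igfbp3 to Tns3 also held 6.

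**Figure D5:**
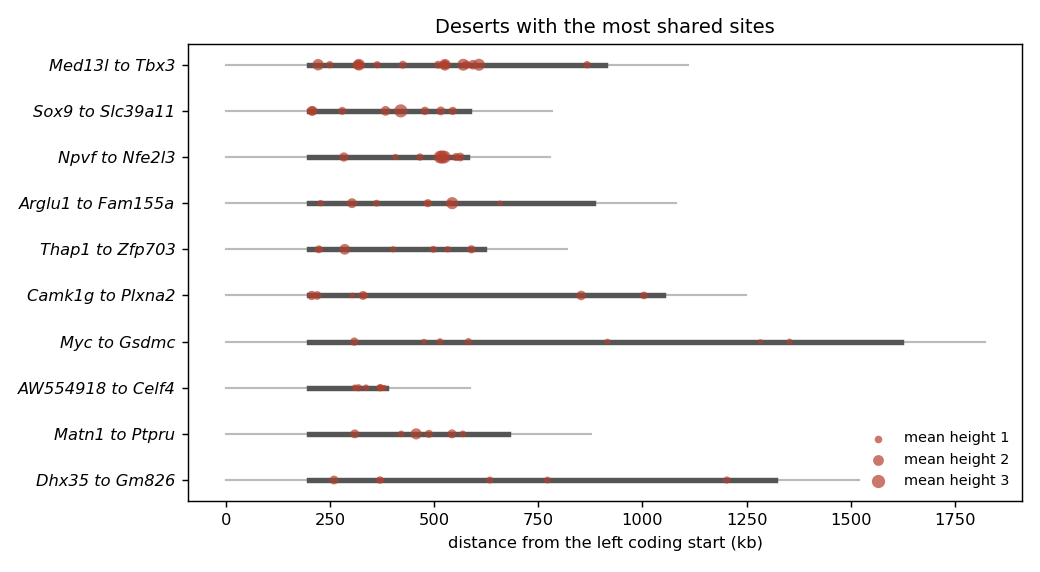
The 10 named deserts with the most shared sites (y axis, flanking coding genes), drawn from the coding start on the left (x axis, kb). Dark bars mark sequence more than 200 kb from both starts, and red circles mark desert sites, with an area proportional to mean height. The Med13l to Tbx3 desert holds 18 sites, and the Myc to Gsdmc desert 7 scattered low ones.

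The largest deserts were close to empty. The 20 largest each hold at least 3.06 Mb of desert sequence and 71.8 Mb in all, and they held 32 sites, or 0.446 per Mb. No site at all lay in 5 of them. The largest, between Pcdh20 and Pcdh9 on chromosome 14, held 3 sites in 5.01 Mb. Over all deserts, 676 of 1109 held no shared site, and these empty ones made up 295 Mb.

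The farthest desert site lay 2195 kb from Pik3c3, a lipid kinase gene, in a low peak of 0.635 in replicate 1 and 0.313 in replicate 2. The next, 2140 kb from the cadherin gene Cdh20, was the opposite: its heights of 7.89 and 7.67 ranked it above 99.7% of shared sites. Of its 31-base words, 35.9% occur more than once in the reference. It was the only shared site in 4.27 Mb of desert. The other 3 of the farthest 5 lay 1824 kb from the protocadherin gene Pcdh20, 1483 kb from the glycosyltransferase gene B3galt2 and 1467 kb from Slc10a2, a bile acid transporter gene. Their heights were 0.703, 0.771 and 3.32 in replicate 1 and 0.518, 1.06 and 2.15 in replicate 2.

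The 20 highest desert sites, taken at most 1 per desert, had heights of 2.34 to 11.0 in replicate 1 and 2.66 to 9.24 in replicate 2. Among them, 7 lay at a noncoding start, 3 held a CTCF consensus, 3 an AP-1 consensus, and 6 held at least some repeated 31-base words. Their nearest genes include the transcription factor genes Zeb1, at 226 kb with heights of 3.67 and 3.57, and Msx2, at 216 kb with heights of 3.24 and 2.67. A site 309.0 kb from Pcmtd1, with heights of 5.00 and 5.64, lies at a start of the noncoding gene Gm26901. A site 227 kb from Tprg, with heights of 3.42 and 4.45, lies at a start of the noncoding gene A230028O05Rik. A site in an intron of Pcdh9, with heights of 3.30 and 3.10, had no footprint in replicate 1 and 2 in replicate 2, and 85.2% of its 31-base words are repeated. The others were nearest to Ddx18, Atp10a, Myt1l, A1bg, Smim15, Rnf144b, Slc39a11, Pik3c3, Nfe2l3 and Icos and to genes named above.

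Repeated sequence was more common in deserts. Over 50% of the 31-base words were repeated in 31 desert sites, or 3.64%, against 1.02% of sites 5 to 50 kb from a start. Those 31 had median heights of 0.714 and 0.813, and the other 820 desert sites had 0.884 and 0.911. At least some repeated words were held by 92 desert sites, or 10.8%, against 8.86% of the nearer sites. They were held by 6 of the 20 highest desert sites. The very high sites nearest to Gm31371, Cdh20, Atp23 and Ddx18 held 70.7%, 35.9%, 17.9% and 18.7%, so the 50% limit sets apart only the first. A word also counted as repeated when its copies lay within the same site, as in the tandem pair of the Atp23 site. Reads from such sequence can be placed at more than 1 position, and their part in the heights was not tested beyond leaving out the 31 sites.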

How the data were processed

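DNase-seq was deposited for 2 libraries of 1 group, numbered by the labels. Each list was made by the authors from 1 library's filtered mm10 alignments and a mappability reference, without pooling, per the text that accompanies it. Which aligner and callers they ran is not given in the sources used here. Heights are the authors' deposited signal values on an unstated scale. The deposited footprint lists carry the same value, 0.01, in every row. Whether this deposited value bounds a p-value or a false discovery rate is not given in the sources used here, and footprints were used by position. The authors' per-base false discovery rate (an adjusted p-value) is listed up to 0.05.

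The shorter peak lists were merged where they overlapped by at least 1 base. A site's height is that of its highest peak in a library, and a footprint counted when it overlapped the site. Distances run from the midpoint to the nearest coding transcript start of GENCODE M21. Consensus sequences were searched in GRCm38.p6 with flanking windows 1 kb away. The 31-base words were counted over the reference chromosomes. Territory is sequence without gaps. Intervals are exact Clopper-Pearson 95% intervals, which treat sites as independent and cover counting error only. Samples give n = 2, and no test across sites was run. Named sites and genes are the 20 highest sites, the 10 deserts with the most sites, up to 3 genes per list, the farthest 5 sites and the printed sequences; Kcnj2 to Sox9, Igfbp3 to Tns3 and the Tbx3 sequence were chosen after their values were seen. Sites and lists were chosen with earlier results of these data known. Interval merging was tested on simulated data. Python 3.11.15, numpy 2.4.6, pandas 2.3.3, scipy 1.17.1 and matplotlib 3.10.9 were used.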

Additional observations from a re-analysis of the deposited data

How the results depend on the processing

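Desert sites numbered 1921 with the longer peak lists, 2085 beyond 100 kb, 127 beyond 500 kb, 45 with starts of every biotype, 102 among the stronger 50% of sites, and 1014 to 1722 in a single library. The height difference was -0.83 beyond 500 kb, -0.30 against sites 50 to 200 kb away, and -0.68 to -0.60 in a single library. It reversed to 0.015 (log2) among the stronger 50%, and the cause was not tested. The width difference moved under no alternative (-0.12 to -0.05 in a single library). The footprint difference in percentage points was -12.5 with the longer lists, -7.91 beyond 500 kb, -0.234 among stronger sites and -2.71 against 50 to 200 kb. It was -1.08 as an equal-weight mean over height classes and -9.70 to -8.43 in a single library. The CTCF difference was -2.63 with every biotype, -4.51 against 50 to 200 kb and -9.08 to -9.01 in a single library. The AP-1 difference was 5.62 beyond 500 kb, 14.1 with every biotype, -0.782 against 50 to 200 kb (reversed) and -0.147 to 0.553 in a single library (reversed in replicate 1 alone). The cause was not tested. The transcription factor difference was 11.6 beyond 500 kb, 2.74 with every biotype, 4.98 against 50 to 200 kb and 6.90 to 7.37 in a single library. Of 72 values under 9 planned and 3 added alternatives, 47 differed from the reported value by less than the spread, 22 moved beyond it and 3 reversed. Read depth is unknown, so how far it limits low desert sites could not be judged. No paired analysis was possible because the study has 1 group, so no replicate number is shared between groups, and classes of sites were compared within each library.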
